A study of Mus musculus with 6 samples.

Results

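Rpl29 and 9 genes that lie near it on chromosome 9 were examined in the livers of mice with and without ferroportin in their hepatocytes. The 10 genes are Glyctk, Wdr82, Twf2, Dusp7, Rpl29, Acy1, Abhd14a, Abhd14b, Pcbp4 and Mapkapk3, in the order in which they follow each other on build GRCm38, and they span chr9:106152859-107289877. They are 10 of the 45777 genes listed in the deposited table and of the 17274 that were tested, and each of the 10 was tested. They were selected on the read counts of these same libraries, compared between the groups, so their differences are given as a description. Where members are counted among the genes that passed a fit over the whole table, the count is no independent test of them. The libraries came from 3 littermate controls (LT, Fpn flox/flox) and 3 Fpn-LKO mice (Alb-Cre with Fpn flox/flox), with 1 liver library per mouse. All were male C57BL/6 animals on the high-fat diet (HFD), which the study's methods start at 8 weeks of age. Both groups carry the floxed Slc40a1 allele, which encodes ferroportin (FPN), and only the Fpn-LKO mice carry Cre, driven by the albumin promoter, which is active in hepatocytes and their precursors. The methods give a 129S line as the source of the floxed allele and a C57BL/6 line as that of Cre, with backcrossing to C57BL/6J.

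The 10 genes do unrelated work and have their position in common. Rpl29 encodes a protein of the large, 60S subunit of the ribosome, whose proteins are needed in nearly equal amounts and whose genes are transcribed at high levels in most cells. As with other ribosomal protein genes, its processed messenger RNA has been copied back into the genome many times, which leaves intronless pseudogenes that differ from the parent in few bases. Short reads from such a family can be placed on the parent or on a copy, depending on a handful of letters. Glyctk is a kinase of glycerate, an intermediate of serine and fructose breakdown in the liver, and Acy1 releases free amino acids from their N-acetylated forms. Abhd14a and Abhd14b are alpha/beta hydrolase fold proteins. Mapkapk3 is a kinase activated by p38, and Dusp7 is a phosphatase of ERK. Pcbp4 binds RNA through KH domains, Twf2 binds actin monomers, and Wdr82 is a subunit of the SET1 histone methyltransferase complexes and of a phosphatase complex that acts in transcription termination.

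Total counts on genes lay between 43086184 and 47778683 per library. Slc40a1, the targeted gene, was measured as CPM, the count on a gene relative to the TMM-scaled library size, and read 154, 180 and 126 for LT mice 1 to 3 against 143, 143 and 176 for the mice labelled Fpn-LKO. Its transcript level was thus not lower there, and each direction given here rests on the labels. The cells of the liver in which albumin was never expressed keep the gene, and whether the counted reads fall in the removed part was not tested. The 6 hepatocyte markers summed to 60920 to 75990 CPM in LT and 63700 to 69580 CPM in the libraries labelled Fpn-LKO, whereas the adipocyte markers Adipoq and Plin1 and 4 pancreas markers were at 0 in every library. The 5 Kupffer cell markers summed to 245 to 309 CPM in LT and 197 to 409 CPM in the libraries labelled Fpn-LKO, and the 5 blood markers to 351 to 941 CPM and 474 to 1243 CPM. In bulk liver, fewer cells of a type and less RNA per cell cannot be told apart.

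In 5 of the 10 genes, every library labelled Fpn-LKO was higher than every LT library, and in the other 5 the groups overlapped. The 5 were Rpl29, Glyctk, Abhd14a, Abhd14b and Mapkapk3. Over all 17274 genes tested, 10.6% had groups without overlap, and 5.25% had them with the higher values in Fpn-LKO. Without Fpn-LKO replicate 1 the groups were apart in 8 of the 10, with Pcbp4, Twf2 and Wdr82 added, and in 20.4% of all genes tested. With p-values from the quasi-likelihood test in edgeR, adjusted after Benjamini and Hochberg, 1 of the 10 genes, Rpl29, passed the threshold of 0.05, and 0.0232% of all genes tested did. Rpl29 also passed without Fpn-LKO replicate 3 and missed that threshold without any 1 of the other 5 libraries, when its log2 fold change lay between 3.18 and 3.66. With DESeq2 and with exactTest, the test of the study's methods, 4 of the 10 genes passed, namely Rpl29, Glyctk, Abhd14b and Mapkapk3, beside 0.417% and 0.365% of all genes tested. These counts come from the contrast on which the genes were picked, so nothing is read from them. The median log2 fold change of the 10 genes was 0.66 and that of all genes tested was -0.0040.

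**Figure D1:**
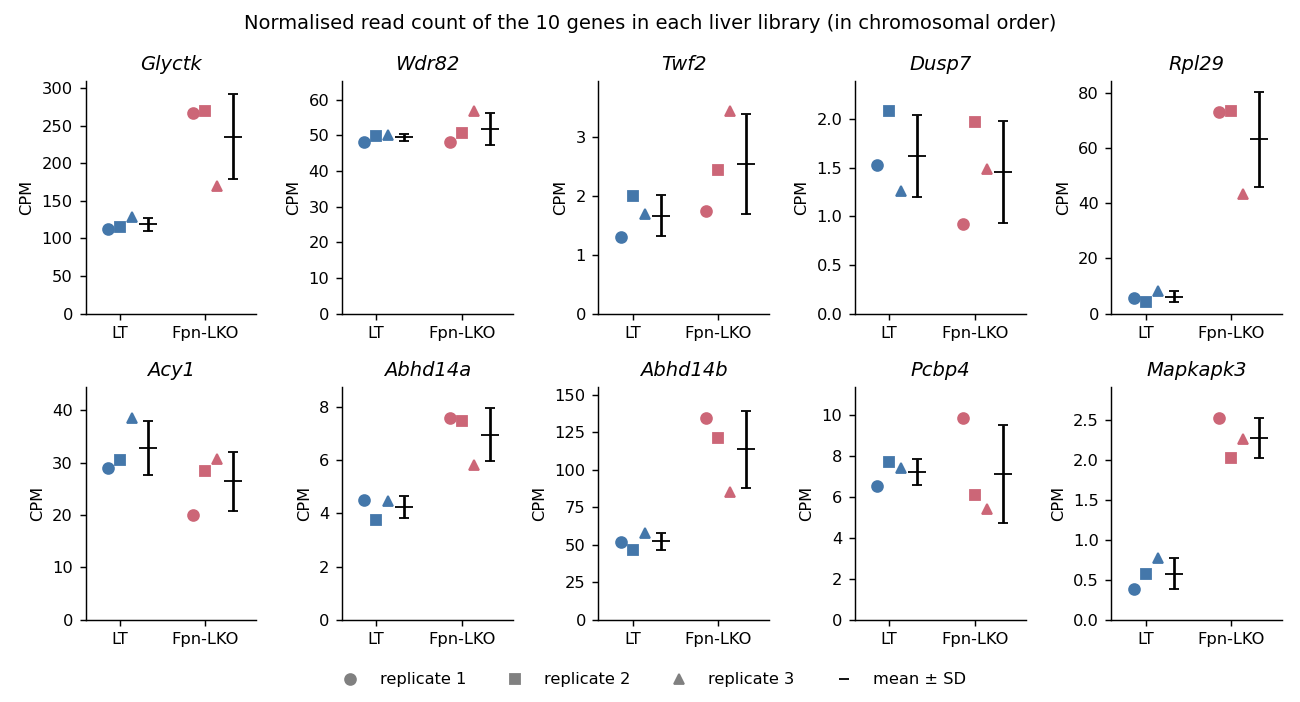
Normalised read count (CPM, each vertical axis from 0) of each of the 10 genes in the 3 LT and 3 Fpn-LKO libraries, with marker shapes for the replicate numbers and bars for the mean ± SD (n = 3). The groups are apart in Rpl29, Glyctk, Abhd14a, Abhd14b and Mapkapk3, and in the first 4 of these Fpn-LKO replicate 3 lies between the LT libraries and the other 2 Fpn-LKO libraries.

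Rpl29, at chr9:106428889-106431568 on the plus strand, drew 281, 189 and 344 reads from LT mice 1 to 3 and 3481, 3417 and 2007 from Fpn-LKO mice 1 to 3. Scaled to the library, this is 5.64, 4.36 and 8.31 CPM against 73.0, 73.2 and 43.3 CPM. The groups were far apart, and within the Fpn-LKO group replicates 1 and 2 nearly coincided while replicate 3 was lower. Mean CPM was 6.11 ± 2.02 against 63.1 ± 17.2 (SD, n = 3 each), and the fitted log2 fold change was 3.37 ± 0.31 (SE). The excess of replicate 3 over the LT mean was 55.5% of the mean excess of replicates 1 and 2.

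Rpl29 was compared with its fellow subunits by TPM, which is scaled to transcript length and so allows levels of different genes to be set side by side. In the LT libraries it had the lowest TPM of 46 genes of the 60S subunit, at 9.36, 5.08 and 9.04 TPM, whereas the median of the other 45 genes was 260, 204 and 241 TPM. Its level was thus 3.59%, 2.49% and 3.76% of that median. In the libraries labelled Fpn-LKO it had 113, 138 and 71.7 TPM, which was 53.9%, 51.8% and 23.7% of the median of the others, and it ranked 40, 41 and 45 from the highest. Even the lowest of the other 45 genes had 67.2, 46.3 and 32.1 TPM in the LT libraries. Rpl29 therefore lay below the range of its family in LT and inside it, near the lower end, in Fpn-LKO.

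**Figure D2:**
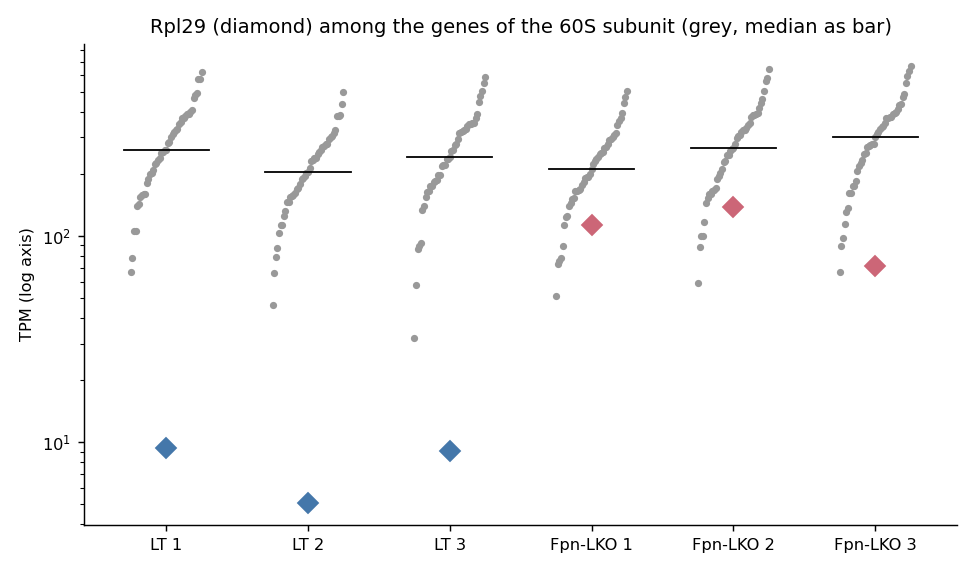
TPM on a log axis of Rpl29 (diamonds, blue for LT and red for Fpn-LKO) and of the other 45 genes of the 60S subunit (grey dots, sorted, with the median as a bar) in each library. Rpl29 sits below every other gene at 5.08 to 9.36 TPM in LT and within the family at 71.7 to 138 TPM in Fpn-LKO.

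Of the other 45 genes of the 60S subunit, all of which were tested, none passed the adjusted threshold by edgeR's quasi-likelihood test, by DESeq2 or by edgeR's exactTest, 0 had an unadjusted p under 0.05, where 4.8% of all genes tested did, and their median log2 fold change was -0.012. Rplp0, a stalk protein and the gene of this list with the smallest p, had 149, 206 and 206 in LT against 210, 239 and 287 in Fpn-LKO (CPM), with a fitted log2 fold change of 0.39 ± 0.18 (SE) and an adjusted p = 0.982 by the edgeR quasi-likelihood test.

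The transcripts of Rpl29 were then searched against all annotated mouse transcripts for near-identical genes. Requiring at least 100 aligned bases with 90% identity, 98 genes matched, of which 30 were in the deposited table and 24 of these were listed there as pseudogenes. These 24 are called the copies here. They were looked for after the values of Rpl29 were known. Reads were assigned to 19 of them. The copies with most reads had their higher values in LT. Gm13841, at chr5:115801543-115802209, drew 1442, 1088 and 1300 reads from the LT mice and 71, 57 and 819 from the Fpn-LKO mice, or 28.96, 25.1 and 31.4 CPM against 1.49, 1.22 and 17.6 CPM. Gm8210, at chr1:43189052-43189773, drew 1235, 952 and 1077 reads from LT and 51, 44 and 663 from Fpn-LKO, or 24.8, 22.0 and 26.0 CPM against 1.07, 0.94 and 14.3 CPM. In both copies the groups did not overlap, replicates 1 and 2 of Fpn-LKO were near 0 relative to LT, and replicate 3 lay between. The log2 fold changes were -2.07 (standard error 0.93) for Gm13841 and -2.16 (standard error 0.95) for Gm8210, and both had an adjusted p of 0.982 by the edgeR quasi-likelihood test. Without Fpn-LKO replicate 3, both passed the adjusted threshold of that test.

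Of the 12 copies with enough reads to be tested, 0 passed the adjusted threshold by the quasi-likelihood test and 5 had an unadjusted p under 0.05, of which 3 were lower and 2 higher in Fpn-LKO, against 4.8% of all genes tested. By DESeq2 and by exactTest 2 passed, Gm5561 and Gm17669, both higher in Fpn-LKO. Groups without overlap were found in 8 of the 12, of which 6 were lower and 2 higher in Fpn-LKO, where 5.34% of all genes tested were apart and lower and 5.25% apart and higher. Among those lower, Gm6344, which lies inside Uimc1 on the opposite strand, had 3.47, 3.39 and 4.13 in LT against 1.32, 1.20 and 2.65 in Fpn-LKO (CPM). Gm15454 had 1.71, 1.55 and 1.595 in LT against 0.38, 0.30 and 1.03 in Fpn-LKO (CPM). Gm10709 had 1.41, 1.45 and 1.67 in LT against 0.75, 0.84 and 1.21 in Fpn-LKO (CPM). In each of these 3 copies, too, Fpn-LKO replicate 3 lay between the LT libraries and the other 2. Gm5561, at chr1:179520245-179520915, had its higher values in Fpn-LKO, as Rpl29 did, with 0.26, 0.30 and 0.34 in LT against 2.39, 2.51 and 1.19 in Fpn-LKO (CPM). So did Gm17669, with 0.12, 0.07 and 0.12 in LT against 1.74, 1.76 and 0.82 in Fpn-LKO (CPM). The shift of replicate 3 from the LT mean, as a percentage of the mean shift of replicates 1 and 2, was 40.0% for Gm13841, 42.9% for Gm8210, 42.2% for Gm6344, 45.6% for Gm15454, 42.4% for Gm10709, 41.2% for Gm5561 and 43.5% for Gm17669. It was 87.1% for Rpl29-ps5, the remaining copy with groups apart, which had at most 7 reads in any library. The genes named Rpl29-ps1, Rpl29-ps4 and Rpl29-ps6 had 0 reads in every library.

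The letters that separate Rpl29 from the 6 copies compared are few. The coding sequence of Rpl29 has 483 bases, and the annotated transcripts of Gm13841 and Gm8210 have the same length, are identical to each other and differ from Rpl29 at 3 positions. Counted from the A of the start codon, the differences are C72A, C300T and T423C, with the base of Rpl29 first and that of the copy last. On chromosome 9 of GRCm38 these positions of Rpl29 are 106430342 in exon 3, and 106431266 and 106431389 in exon 4, of its first listed transcript. C300T and T423C were shared by all 6 copies compared, which are Gm13841, Gm8210, Gm6344, Gm15454, Gm10709 and Gm5561. The sequence of Gm17669 was not compared. C72A was present in Gm13841 and Gm8210 alone among the 6. The numbers of substitutions against Rpl29 were 3 in Gm6344, 4 in Gm15454, 4 in Gm10709 and 8 in Gm5561. The stretches of 61 bases around the 3 positions are shown because a read that covers none of them, and lies within the coding sequence, has the same letters in Rpl29, Gm13841 and Gm8210. They come from the GENCODE transcripts of GRCm38 and read 5′ to 3′ on the transcript, with the differing base in capitals.
Rpl29 42 to 102: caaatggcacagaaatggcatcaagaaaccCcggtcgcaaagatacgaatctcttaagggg
Gm13841 42 to 102: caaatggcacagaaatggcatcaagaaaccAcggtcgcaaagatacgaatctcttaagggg
Rpl29 270 to 330: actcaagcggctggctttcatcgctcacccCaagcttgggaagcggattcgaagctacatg
Gm13841 270 to 330: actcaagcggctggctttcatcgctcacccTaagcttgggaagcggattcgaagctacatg
Rpl29 393 to 453: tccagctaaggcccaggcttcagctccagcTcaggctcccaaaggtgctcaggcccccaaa
Gm13841 393 to 453: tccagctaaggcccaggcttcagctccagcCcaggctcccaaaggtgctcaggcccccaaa

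Which of these letters the reads of each mouse carry was not tested, since the table holds counts per gene and no reads. The split of the family's reads between Rpl29 and its copies can be given. The 24 copies summed to 61.8, 54.7 and 65.7 CPM over the LT mice and to 9.73, 9.40 and 39.6 CPM over the Fpn-LKO mice. Rpl29 held 8.37%, 7.38% and 11.2% of the reads of the family in LT, and 88.2%, 88.6% and 52.2% in Fpn-LKO. The share was therefore low in each LT library, high in Fpn-LKO replicates 1 and 2 and near the middle in replicate 3. Rpl29 and the copies summed to 67.5, 59.1 and 74.1 in LT against 82.7, 82.6 and 82.8 in Fpn-LKO (CPM). The sums still did not overlap, with means of 66.9 ± 7.49 and 82.7 ± 0.13 CPM (SD, n = 3 each). When the family was fitted as 1 gene, the log2 fold change was 0.31 (standard error 0.11), against 3.37 for Rpl29 counted alone. This fit was added after the values were seen. Uimc1, a protein-coding gene that contains Gm6344, had 15.0, 17.2 and 17.1 in LT against 16.8, 16.0 and 15.7 in Fpn-LKO (CPM), and it is not part of the sums.

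**Figure D3:**
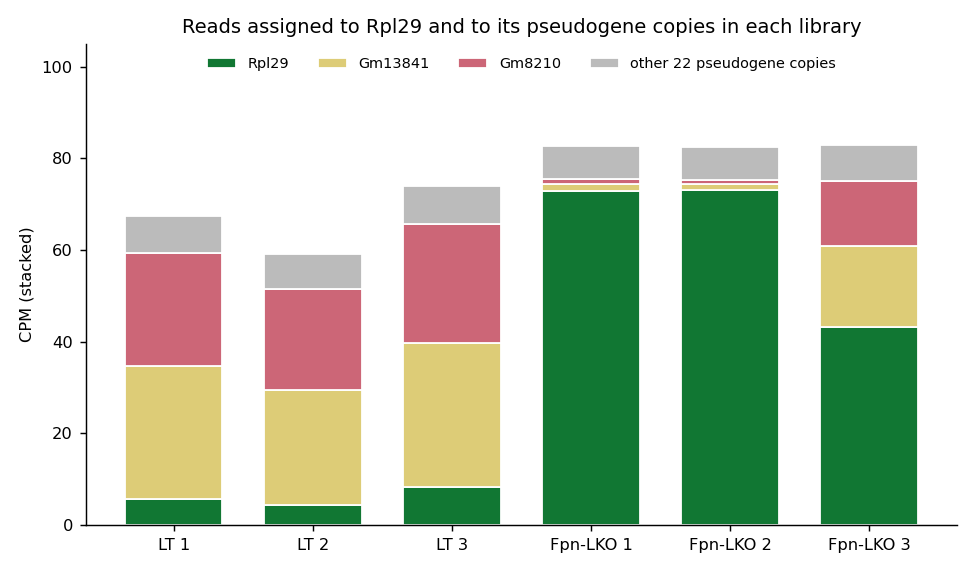
Stacked CPM of Rpl29, Gm13841, Gm8210 and the other 22 copies in each of the 6 libraries. Rpl29 makes up 7.38% to 11.2% of the stack in LT, 88.2% and 88.6% in Fpn-LKO replicates 1 and 2 and 52.2% in replicate 3, while the height of the stack runs from 59.1 to 82.8 CPM.

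Glyctk, at chr9:106152859-106160158 on the minus strand, was the member with most reads. It measured 112, 116 and 129 in LT against 267, 269 and 170 in Fpn-LKO (CPM), and the groups were apart. Mean CPM was 119 ± 8.79 against 235 ± 56.7 (SD, n = 3 each), and the fitted log2 fold change was 0.98 ± 0.19 (SE). As in Rpl29, replicates 1 and 2 of Fpn-LKO were nearly equal and replicate 3 was lower, with an excess over the LT mean that was 34.1% of theirs. Glyctk overlaps the noncoding gene D030055H07Rik on the other strand, whose CPM of 1.33, 0.81 and 1.26 in LT against 1.07, 1.14 and 0.97 in Fpn-LKO is far below that of Glyctk. Whether strand was used in the authors' counting is not given in the sources used here, although the kit named in the labels keeps strand.

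Abhd14b, at chr9:106447737-106452923 on the plus strand, had 52.1, 46.6 and 58.1 in LT against 135, 121 and 85.0 in Fpn-LKO (CPM). The groups were apart, the log2 fold change was 1.12 (standard error 0.19), and the excess of replicate 3 was 43.2% of that of the other Fpn-LKO libraries. Abhd14a, its overlapping neighbour on the minus strand at chr9:106440051-106451203, had 4.48, 3.74 and 4.45 in LT against 7.59, 7.45 and 5.80 in Fpn-LKO (CPM). Its groups were apart too, with a log2 fold change of 0.72 (standard error 0.19), and replicate 3 had 47.7% of the excess of the other Fpn-LKO libraries. These genes share 3467 bases on opposite strands, and Abhd14b had many more reads, so where strand was not used their reads cannot be told apart and the value of Abhd14a is uncertain. The ratio of the deposited counts to the deposited FPKM differs between libraries by 1 factor for genes whose transcript length stays the same. In Abhd14a this ratio also wandered by 0.74 on the log2 scale over the 6 libraries. The corresponding value was 0.43 for Rpl29 and between 0.0089 and 0.17 for the other 7 members with at least 20 reads in every library, and among all such genes the median was 0.026 and the 95th percentile 0.44. The part of this in the values of Rpl29 and Abhd14a was not tested.

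Mapkapk3, at chr9:107254927-107289877 on the minus strand, was the member with fewest reads, and its lower coordinate is 826038 bases from that of Rpl29. It had 0.38, 0.58 and 0.77 in LT against 2.54, 2.03 and 2.26 in Fpn-LKO (CPM). The groups were apart, mean CPM was 0.58 ± 0.20 against 2.28 ± 0.25 (SD, n = 3 each), and the fitted log2 fold change was 1.98 ± 0.35 (SE). Here Fpn-LKO replicate 3 did not lie between the LT libraries and the other Fpn-LKO libraries, its excess being 98.7% of that of replicates 1 and 2. Over the 12577 genes with a mean of at least 1 CPM, the ratio of Fpn-LKO replicate 3 to the mean of replicates 1 and 2 ran from 0.591 at the 5th percentile to 1.59 at the 95th. The ratio was 0.592 for Rpl29, 0.633 for Glyctk, 0.664 for Abhd14b, 0.771 for Abhd14a and 0.990 for Mapkapk3, so each of the 5 was within that range.

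The other 5 members overlapped between the groups. Acy1, which runs towards Rpl29 on the minus strand and ends 1412 bases from the end of Rpl29, had 28.98, 30.5 and 38.6 in LT against 20.1, 28.5 and 30.8 in Fpn-LKO (CPM), with a fitted log2 fold change of -0.31 ± 0.19 (SE). The member closest to Rpl29 was therefore not higher with it. Pcbp4, which begins 58 bases beyond Abhd14b, had 6.51, 7.71 and 7.40 in LT against 9.87, 6.10 and 5.39 in Fpn-LKO (CPM), with a fitted log2 fold change of -0.016 ± 0.25 (SE). Dusp7 had 1.53, 2.08 and 1.26 in LT against 0.92, 1.97 and 1.49 in Fpn-LKO (CPM), with a fitted log2 fold change of -0.15 ± 0.37 (SE). Both log2 fold changes were smaller than their standard errors, and their sign changed when single libraries were left out. Twf2 had 1.31, 1.99 and 1.69 in LT against 1.74, 2.44 and 3.43 in Fpn-LKO (CPM), with a fitted log2 fold change of 0.61 ± 0.33 (SE). Wdr82 had the steadiest level of the 10, with 48.2, 49.9 and 50.2 in LT against 48.1, 50.7 and 56.7 in Fpn-LKO (CPM), with a fitted log2 fold change of 0.07 ± 0.10 (SE). Its standard deviation was 2.18% of the mean in LT and 8.52% in Fpn-LKO.

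**Figure D4:**
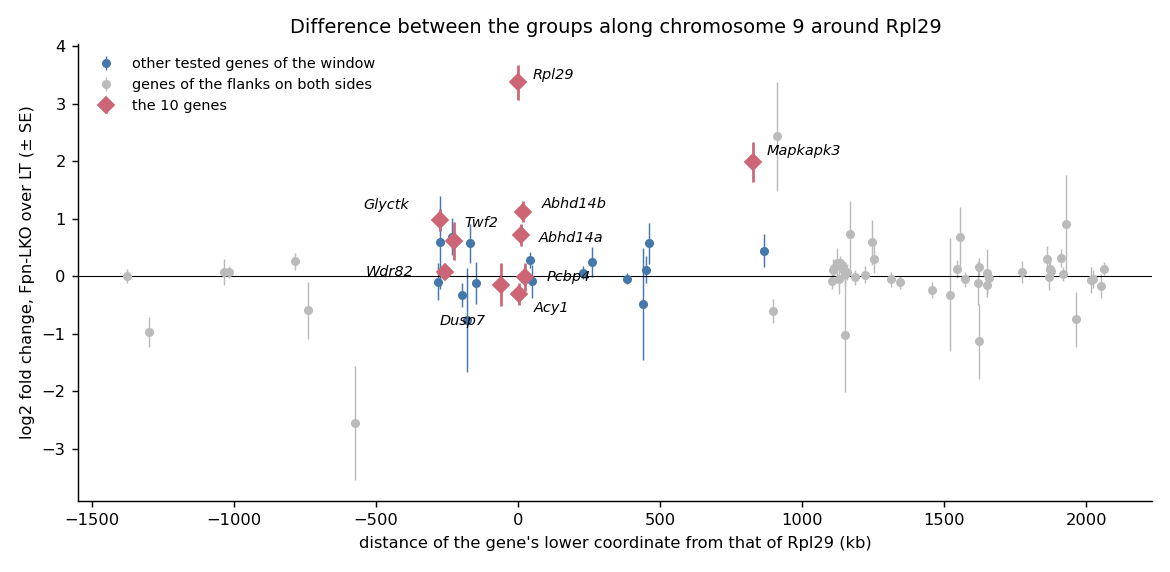
Log2 fold change (Fpn-LKO over LT, ± standard error) of the 10 genes (red diamonds), of the other tested genes of the same window (blue) and of the tested genes on both flanks (grey) against the distance of each gene's lower coordinate from that of Rpl29, in kb. Rpl29 at 3.37 and Mapkapk3 at 1.98 stand above the other genes of the window, of which the 16 outside the set lie between -0.76 and 0.69.

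The other genes of this stretch were examined too. Between 106100000 and 107300000 on chromosome 9, 40 further genes are annotated and 16 of them were tested. None passed the adjusted threshold by edgeR's quasi-likelihood test, by DESeq2 or by exactTest, 0 had an unadjusted p under 0.05 by the first of these and 0 had groups without overlap. Their median log2 fold change was 0.085, with a range from -0.76 to 0.69. Those were the genes left outside the set, and the one with the smallest p was Ppm1m, a protein phosphatase, with a log2 fold change of 0.69 (standard error 0.31), which was named after its value was seen. In the 1200000 bases before the window, 7 genes were tested and 2 had an unadjusted p under 0.05, both lower in Fpn-LKO, and the groups were apart in these 2. They were Nudt16, with 6.67, 5.26 and 7.54 in LT against 2.75, 2.72 and 4.44 in Fpn-LKO (CPM), and Col6a5, a collagen VI chain, with 3.60, 4.32 and 4.98 in LT against 0.48, 0 and 1.70 in Fpn-LKO (CPM). In the 1200000 bases after it, 44 genes were tested and 2 had an unadjusted p under 0.05, Hemk1, which was lower in Fpn-LKO, and 6430571L13Rik, which was higher, while the groups were apart in 7 of the 44, 5 of them higher and 2 lower in Fpn-LKO. Over all genes tested, 4.8% had an unadjusted p under 0.05 and 10.6% had groups apart. None of these 4 genes passed the adjusted threshold, and they were named after their values were seen.

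On the TPM scale, which allows levels of different genes to be compared, the order of the members was not the same in the groups. In LT the highest mean was that of Abhd14b at 44.0 TPM, followed by Glyctk at 35.9, Acy1 at 28.4, Wdr82 at 14.9, Rpl29 at 7.83, Pcbp4 at 4.01, Abhd14a at 3.16, Twf2 at 1.30, Dusp7 at 0.64 and Mapkapk3 at 0.25 TPM. Of the neighbours in this order, only Pcbp4 and Abhd14a had ranges over the 3 libraries that overlapped. In Fpn-LKO, Rpl29, counted without its copies, came first at 108 TPM, with Abhd14b at 101 and Glyctk at 76.8 TPM. The ranges of these 3 overlapped from each to the next. Acy1 at 24.9 and Wdr82 at 17.2 TPM followed, also with overlapping ranges. The lower part of the order was Abhd14a at 5.84, Pcbp4 at 4.39, Twf2 at 2.15, Mapkapk3 at 1.08 and Dusp7 at 0.62 TPM. The ranges of Abhd14a and Pcbp4 overlapped here too, whereas Mapkapk3 and Dusp7 had changed places with ranges apart.

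For each member except Abhd14a and Abhd14b, which had no list, genes that act with its protein or are related to it were examined next. The 8 lists hold 116 genes, of which 112 were tested. None of the 112 passed the adjusted threshold of edgeR's quasi-likelihood test, 5 had an unadjusted p under 0.05, against 4.8% of all genes tested, and their median log2 fold change was 0.0015. By DESeq2 and by exactTest 1 passed, the same gene with both. It was Map2k6, a kinase that activates p38, with 9.40, 17.8 and 8.43 in LT against 3.79, 5.59 and 4.98 in Fpn-LKO (CPM), with a fitted log2 fold change of -1.31 ± 0.31 (SE). Its adjusted p was 0.747 by the quasi-likelihood test, 0.0143 by DESeq2 and 0.0448 by exactTest. It stands in the p38 list beside Mapkapk3, where 3 of 11 genes tested had an unadjusted p under 0.05. The others were Mapkapk2, the closest relative of Mapkapk3, with 22.1, 24.0 and 19.0 in LT against 32.0, 27.6 and 26.7 in Fpn-LKO (CPM), with a fitted log2 fold change of 0.41 ± 0.13 (SE), and Hspb1, a small heat shock protein that the MK2 kinases phosphorylate (fitted log2 fold change 0.93 ± 0.37, SE), both with an adjusted p of 0.982 by the quasi-likelihood test. Mapkapk5, a more distant relative, had 20.01, 20.5 and 22.4 in LT against 21.3, 21.1 and 20.02 in Fpn-LKO (CPM). Map2k3, another p38-activating kinase of this list, had a fitted log2 fold change of 0.046 ± 0.255 (SE).

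In the list of glycerate and fructose enzymes around Glyctk, 11 genes were tested, 0 passed the adjusted threshold and 1 had an unadjusted p under 0.05. This was Tkfc, which phosphorylates glyceraldehyde, with 87.8, 114 and 55.1 in LT against 32.4, 58.5 and 55.2 in Fpn-LKO (CPM), with a fitted log2 fold change of -0.81 ± 0.31 (SE) and an adjusted p = 0.982 by the edgeR quasi-likelihood test. Its groups overlapped. Grhpr, which reduces hydroxypyruvate to glycerate, had 133, 149 and 154 in LT against 143, 145 and 121 in Fpn-LKO (CPM). Khk, the ketohexokinase of fructose breakdown, had 157, 175 and 184 in LT against 156, 161 and 140 in Fpn-LKO (CPM), and its log2 fold change was -0.17 (standard error 0.12).

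The remaining lists held little. Of 13 tested ERK kinases, phosphatases and feedback inhibitors around Dusp7, 1 had an unadjusted p under 0.05, the phosphatase gene Dusp1 (fitted log2 fold change 0.58 ± 0.24, SE, adjusted p = 0.982 by the edgeR quasi-likelihood test), and Dusp6, the close relative of Dusp7, had a log2 fold change of 0.11 (standard error 0.21). None of 7 hydrolases of acyl amino acids and dipeptides around Acy1, 4 KH-domain proteins around Pcbp4, 9 actin-monomer and capping proteins around Twf2 and 12 subunits of the complexes of Wdr82 had one. The genes with the smallest p in these 4 lists were Pm20d2, Pcbp2, Gmfb and Ash2l, with log2 fold changes of 0.21, 0.33, 0.27 and -0.22. Among the close relatives, the log2 fold changes were -0.024 for Acy3, 0.25 for Pcbp1, -0.17 for Pcbp3, and 0.03 for Twf1. The methyltransferases Setd1a and Setd1b, which act in a complex with Wdr82, had log2 fold changes of 0.37 and 0.14. Dusp9, with Phgdh, Cndp1 and Mapk13, had too few reads to be tested.

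**Figure D5:**
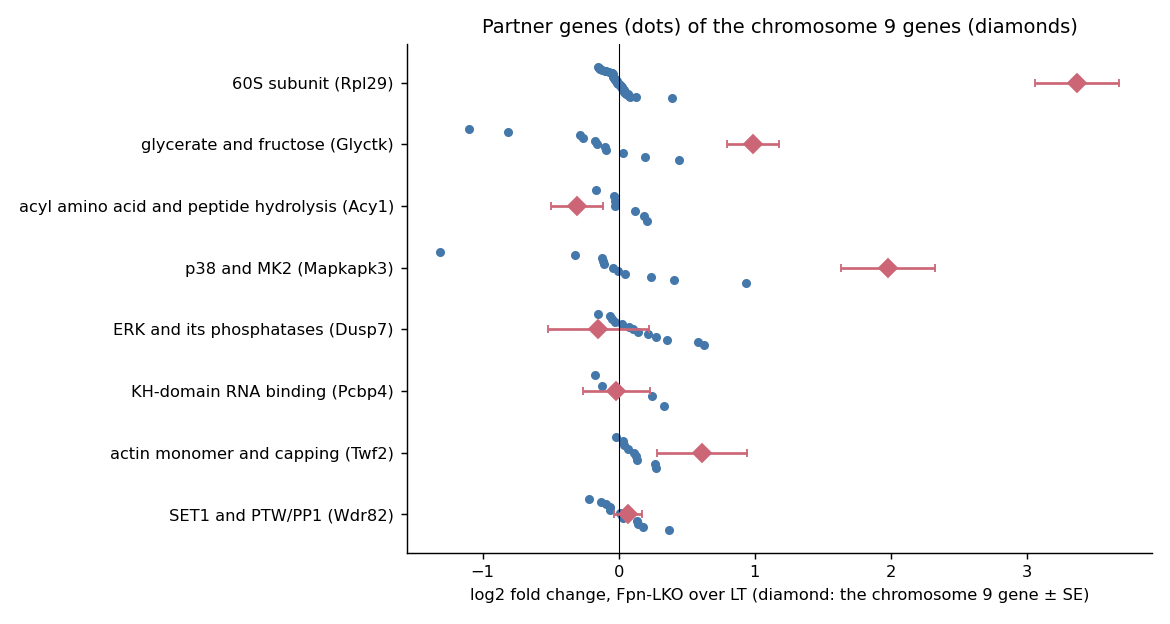
Log2 fold change (Fpn-LKO over LT) of the tested genes of each of the 8 lists (blue dots) and of the chromosome 9 gene that each list stands beside (red diamond ± standard error). The partners of Rpl29, Glyctk and Mapkapk3 lie on both sides of 0 and below the values of these 3 genes, which are 3.37, 0.98 and 1.98.

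Genes outside the set were ranked by how closely their log2(CPM + 1) followed that of Rpl29 over the 6 libraries, among genes with a mean of at least 1 CPM. The closest were Ly96 on chromosome 1 (Pearson's r 0.994), Kctd15 on chromosome 7 (0.987), Nudc-ps1 on chromosome 8 (0.986), Haus1 (0.984) and Rnf6 on chromosome 5 (0.982). The libraries fall into their 2 groups in Rpl29, so these coefficients mainly express a difference between the groups that is large beside the spread inside them. They are given as a ranking without a p. Within the set the coefficients were 0.979 for Abhd14b, 0.973 for Abhd14a, 0.969 for Mapkapk3 and 0.959 for Glyctk, and between -0.57 and 0.53 for the other 5. The 5 closest genes outside the set were on other chromosomes. The 4 neighbours with groups apart were picked on this same contrast, so high coefficients follow from that choice and nothing is read from them.

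The start regions of the members were compared for letters in common. RefSeq promoters on build GRCm38.p6, each 250 bases before and 50 after a start, were at hand for 7 of the 10 members, as 8 windows with 2 for Mapkapk3. Rpl29, Twf2 and Pcbp4 had no entry. The upstream 250 bases are printed for Glyctk and Mapkapk3, whose groups were apart, and for Wdr82, the steadiest of the 10, so that the start regions of genes with and without a difference can be read side by side. The Glyctk window is at chr9:106158139-106158388 on the minus strand, the Mapkapk3 window at chr9:107289878-107290127 on the minus strand and the Wdr82 window at chr9:106170679-106170928 on the plus strand. The Glyctk window lies inside the annotated gene, which reaches 106160158, so it precedes an internal start. The windows of Abhd14a and Abhd14b and the second window of Mapkapk3 also lie inside their genes. Capitals mark the motifs searched, on either strand. Each reads 5′ to 3′ towards the start.
Glyctk: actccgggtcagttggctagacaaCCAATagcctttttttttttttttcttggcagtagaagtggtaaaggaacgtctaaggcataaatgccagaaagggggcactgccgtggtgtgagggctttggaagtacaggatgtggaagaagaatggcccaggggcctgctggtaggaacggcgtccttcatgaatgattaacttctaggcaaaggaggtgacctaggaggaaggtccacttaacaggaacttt
Mapkapk3: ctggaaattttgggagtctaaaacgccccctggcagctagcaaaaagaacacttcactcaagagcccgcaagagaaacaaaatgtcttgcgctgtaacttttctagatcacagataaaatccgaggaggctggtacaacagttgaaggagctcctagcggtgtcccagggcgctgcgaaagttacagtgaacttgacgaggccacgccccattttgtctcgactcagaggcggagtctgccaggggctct
Wdr82: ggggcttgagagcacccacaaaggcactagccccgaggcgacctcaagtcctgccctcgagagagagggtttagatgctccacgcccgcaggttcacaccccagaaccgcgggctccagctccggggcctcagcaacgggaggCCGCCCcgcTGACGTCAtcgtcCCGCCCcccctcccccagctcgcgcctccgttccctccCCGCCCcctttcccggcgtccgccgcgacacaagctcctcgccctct

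The Glyctk window held a CCAAT box and the Mapkapk3 window none of the motifs, whereas the Wdr82 window held 3 GC boxes and a CRE. The second Mapkapk3 window, which is not printed, held an E box. Of the other members with groups apart, Abhd14a had a CCAAT box and 2 GC boxes and Abhd14b none of the motifs. Dusp7 had a CCAAT box and a GC box, and Acy1 had GC boxes, a CCAAT box and an E box. Over the 8 windows of 300 bases, the CCAAT box (CCAAT) was in 4 and in 37.4% of the 32851 RefSeq promoters, and the GC box (GGGCGG) in 4 and in 35.7%. The E box CACGTG was in 2 and in 7.15% of all promoters, and the CRE (TGACGTCA) in 1 and in 1.79%. The TATA box (TATAAA), the AP-1 site (TGACTCA) and the FoxO site (GTAAACA) were in 0 of the 8, and in 13.6%, 5.20% and 3.65% of all promoters. A match or its absence describes the letters of these windows alone.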

How the data were processed

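Bulk liver RNA was sequenced, from 3 animals per genotype. Reads were mapped to mm10 by the authors, who deposited StringTie read counts per gene, without normalization, with FPKM (scaled to transcript length and depth) and TPM (the same total in every library). The submitters' processing notes name HISAT2 2.1.0, Bowtie2 2.3.4.1 and StringTie 2.1.3b. The strand setting is not given in the sources used here. The labels name a stranded mRNA kit with 1 µg of RNA, whereas the methods describe rRNA removal.

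Groups and replicate numbers came from the labels, and all libraries share 1 batch there. A gene was tested when at most 1 library had 0 reads for it, the filter of the methods. Counts were TMM-scaled and tested by the quasi-likelihood test of edgeR 4.0.16 (R 4.3.3), and adjusted after Benjamini and Hochberg over the whole table. The methods used exactTest. Alternatives were exactTest, DESeq2 1.42.0, limma 3.58.1 on log2(TPM + 1) or log2(TPM + 0.1) where the mean TPM reached 1, RLE factors, other filters, a replicate block and leaving out each library. On simulated counts for this comparison (17093 genes tested), the quasi-likelihood test recovered 24 of 100 genes changed 2-fold and 99 of 100 changed 4-fold. The common biological coefficient of variation was 0.275, so counting error is small beside it for genes with many reads. Near-identical transcripts were found with BLAST 2.17.0 in GENCODE M21. Positions are from RefSeq.

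The 10 genes, the lists and the rule for naming genes were chosen with earlier results of these data known. The rule took the 10 genes, Slc40a1, the gene of each list with the smallest p or a pass, close relatives and, for Wdr82, SET1 partners of the members, pseudogenes of Rpl29 with at least 1 CPM and the 5 genes most like Rpl29. Nothing says more of the libraries than 1 mouse each, so p-values set the difference between the groups against the spread between mice within them.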

Additional observations from a re-analysis of the deposited data

How the results depend on the processing

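The direction of Rpl29, Glyctk, Abhd14a, Abhd14b, Acy1, Twf2 and Wdr82 was the same in every refit of the same counts or TPM. That of Mapkapk3 was the same in every refit of the counts, and it was not fitted on TPM. The log2 fold change of Rpl29 ranged down from 3.77 to 0.31, the latter with its copies summed in. Dusp7 changed sign in 2 and Pcbp4 in 6 alternatives. DESeq2 called 72 genes and exactTest 63, each with 4 of the 10 genes (Rpl29, Glyctk, Abhd14b and Mapkapk3) and 1 partner gene. Between same-numbered mice the correlations of deviations from the group means were 0.13, -0.0095 and 0.045. Differently numbered mice were not compared, so whether the replicate numbers pair the mice was not tested. With the replicate block 0 genes and 0 of the 10 passed, and under it 0 of the copies did.

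Leaving out 1 library gave 0 to 6 genes and 0 to 1 of the 10 genes past the threshold. Rpl29 passed without Fpn-LKO replicate 3 and missed it without any other single library. Of the 10 genes, 5 to 8 had groups apart, the 8 without Fpn-LKO replicate 1, when Pcbp4, Twf2 and Wdr82 joined them. Without that library 20.4% of all genes tested had groups apart, against 10.6% with all 6 libraries. The median of the other genes of the window ran from 0.022 to 0.28, the latter without LT replicate 3. On log2(TPM + 1) it was 0.24 and on log2(TPM + 0.1) 0.28, where the median of the 10 genes was 0.77 and 7 genes passed. On these scales 8 of the 10 genes, all but Mapkapk3 and Dusp7, reached the minimum, and the median of all genes was 0.083 and 0.097. The cause of these differences was not tested. For genes with few reads, such as Mapkapk3 and Dusp7, depth limits the precision.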
